A study of Mus musculus with 30 samples.

Results

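The 10 genes described here encode chemokines, and they are 10 of the 55385 genes listed for each library. They were taken as a fixed list of symbols (Ccl2, Ccl5, Ccl19, Cxcl1, Cxcl9, Cxcl10, Cxcl12, Cxcl13, Cxcl16 and Cx3cl1), chosen with earlier results of these data known. They were found through the Ensembl identifiers of the files with the mouse GENCODE M21 annotation. RNA of kidney and retina was sequenced from mice of 16 weeks. In each organ the 4 groups were diabetic Lepr(db/db) mice with a global Camk2d knockout (KO diabetic), non-diabetic Lepr(+/+) mice with that knockout (KO non-diabetic), diabetic Lepr(db/db) mice with wild-type Camk2d (WT diabetic), and non-diabetic Lepr(+/+) mice with wild-type Camk2d (WT non-diabetic). Kidney had 4 libraries in each group. Retina had 3 KO diabetic, 4 KO non-diabetic, 4 WT diabetic and 3 WT non-diabetic libraries. Of the 21 animals sampled, 9 gave kidney and retina, and each library is called by its organ letter (K or R) and animal number. Camk2d is the gene of CaMKII delta, a calcium-activated protein kinase, and Lepr(db/db) mice lack the signalling form of the leptin receptor and become obese and hyperglycaemic. Because the knockout is global, a difference between genotypes cannot be placed in one organ or cell type. The sources used here do not give sex, strain background or housing.

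Chemokines are small secreted or membrane-tethered proteins that bind G protein-coupled receptors on leukocytes and other cells and direct where those cells move. Inflammatory chemokines such as Ccl2, Ccl5, Cxcl1, Cxcl9 and Cxcl10 are induced by cytokines, often through NF-kB or interferon-activated transcription factors. Homeostatic ones such as Cxcl12, Cxcl13 and Ccl19 place cells in tissues and lymphoid organs, while Cxcl16 and Cx3cl1 are made as transmembrane proteins that can be shed. In diabetic kidney disease Ccl2 is widely studied as a signal for monocytes, and in retina neuronal Cx3cl1 is known as a signal to microglia through Cx3cr1.

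In GENCODE M21 coordinates (GRCm38), Ccl2 lies on chromosome 11 at 82035571 to 82037453 (plus strand), Ccl5 on chromosome 11 at 83525778 to 83530518 (minus) and Ccl19 on chromosome 4 at 42754525 to 42756577 (minus). Chromosome 5 holds Cxcl1 at 90891241 to 90893115 (plus), Cxcl9 at 92321347 to 92328079 (minus), Cxcl10 at 92346638 to 92348889 (minus) and Cxcl13 at 95956951 to 95961068 (plus). Cxcl12 lies on chromosome 6 at 117168535 to 117181367 (plus) and Cx3cl1 on chromosome 8 at 94772009 to 94782427 (plus).

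Total counts ran from 19870485 to 22643055 per library. Camk2d lay at 0.0864 to 0.557 CPM (counts scaled to the normalised library size) in KO kidneys and 10.3 to 19.8 CPM in WT kidneys, and at 3.09 to 4.25 CPM in KO retinas and 285 to 343 CPM in WT retinas, as labelled. Markers of proximal tubule summed to 9955 to 48740 CPM in kidney, and markers of rods to 41620 to 57600 CPM in retina. Mitochondrial transcripts took 45.4% of the counts of K591 (KO diabetic) and 36.4% of those of K861 (WT non-diabetic), against 22.0% to 31.9% in the other kidney libraries. Adipose markers summed to 27.9 to 448 CPM in KO diabetic, KO non-diabetic and WT diabetic kidneys and to 121 to 2181 CPM in WT non-diabetic kidneys. Of the WT diabetic retinas, R915, R942 and R954 were set apart from R844 in an earlier analysis of these data. Here the mean squared difference in counts over the counting variance was 15.7 to 22.7 between R844 and these 3 and 8.40 to 18.6 among the 3, ranges that overlap. Values of Cxcl12 and Cxcl16 that use WT diabetic retinas are given with and without these 3, where R844 is then the lone WT diabetic retina and is assumed to vary like the other groups. A gene was called at an adjusted p under 0.05 in edgeR's quasi-likelihood test, with Benjamini-Hochberg adjustment over all genes tested (18177 in kidney, 20979 in retina). The p-values cover the spread between these libraries, each from a different animal within an organ. Where groups are said not to overlap, this is a description, since the share of all genes without overlap was not counted. In whole organs, fewer cells of a type and less RNA per cell cannot be told apart.

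Per transcript length, 3 of the 10 chemokines made up most of the RNA of these 10 in both organs. In kidney, Cxcl12, Cx3cl1 and Cxcl16 together took 69.9% to 93.9% of the 10 genes' summed TPM, a level scaled to transcript length and depth, and in retina 91.8% to 97.4%. Cxcl12, the ligand of Cxcr4, was the most abundant of the 10 in kidney. Its mean level was 42.8 ± 14.4 TPM (SD, n = 16), with a range of 14.2 to 68.4 TPM. Cx3cl1 (fractalkine, the ligand of Cx3cr1) averaged 16.1 ± 4.17 TPM in kidney, and Cxcl16, the ligand of Cxcr6 and a scavenger receptor for oxidised lipoprotein, 14.9 ± 5.86 TPM. Ccl5 (4.46 ± 3.43 TPM), Ccl19 (4.05 ± 1.88 TPM) and Cxcl10 (3.44 ± 1.68 TPM) followed. Cxcl9 (0.755 ± 0.713 TPM), Ccl2 (0.664 ± 0.511 TPM), Cxcl1 (0.434 ± 0.197 TPM) and Cxcl13 (0.160 ± 0.183 TPM) averaged less than 1 TPM in kidney. Every neighbouring pair in this kidney order overlapped in range over the 16 libraries.

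The order in retina was another one. Cx3cl1 stood first at 49.6 ± 3.98 TPM (SD, n = 14), and its lowest retina library (44.3 TPM) lay above the highest Cxcl16 library (23.0 TPM). Cxcl16 averaged 16.5 ± 3.57 TPM and Cxcl12 averaged 13.7 ± 2.25 TPM, with overlapping ranges. Cxcl13, the B-cell attractant of lymphoid follicles, came next at 2.06 ± 0.647 TPM, and it reached at least 1 TPM in all 14 retina libraries but in none of the 16 kidney libraries. The other 6 averaged less than 1 TPM in retina, and Ccl2 had no read in 9 of the 14 retina libraries. In counts, the retina libraries held at most 3 reads of Ccl2, 5 of Ccl5, 6 of Cxcl1, 6 of Ccl19, 9.1 of Cxcl9 and 22 of Cxcl10, so these 6 genes did not pass the filter on low counts in the retina fit.

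**Figure D1:**
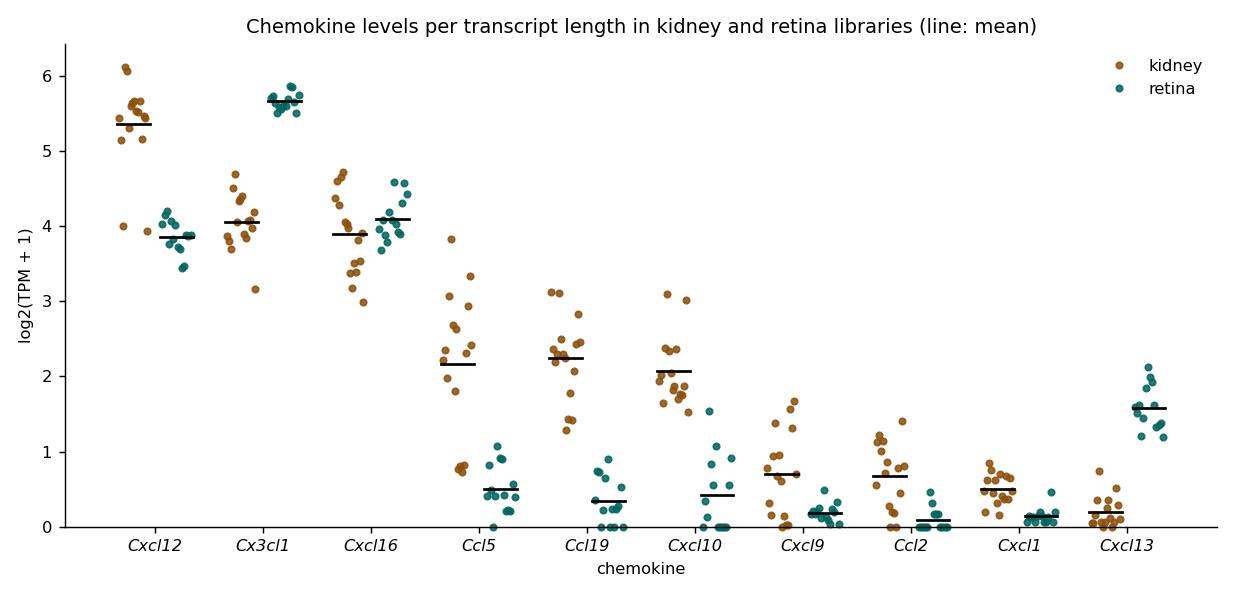
Levels of the 10 chemokines on a log2(TPM + 1) scale (y axis), by gene in order of their kidney mean (x axis), with 16 kidney libraries left of 14 retina libraries for each gene and a black line at the mean. Cx3cl1 and Cxcl13 lay higher in retina, Cxcl16 overlapped between the organs, and the other 7 had higher means in kidney.

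A fit of all 30 libraries tested the 10 genes between kidney and retina. On normalised counts all 10 were called, 9 higher in kidney and only Cxcl13 lower, where 87.8% of all 23021 genes tested were called. The median log2 difference was 3.20 for the 10 genes and -0.14 for all genes. Ccl19 (5.61 ± 0.29, log2 ± SE), Cxcl10 (6.17 ± 0.34) and Ccl5 (4.37 ± 0.27) were among the largest kidney excesses, and Cxcl13 fell by 1.91 ± 0.35 (adjusted p = 1.15e-05). This fit does not use that 9 animals gave both organs. With a block on those animals in a fit of their libraries alone, 6 of the 10 passed the filter and all 6 were called, Cxcl13 lower and the other 5 higher, with Cxcl10 at 4.93 in place of 6.17. The direction of the membrane-tethered pair rested on the scale. On counts normalised over all 30 libraries, Cx3cl1 was 0.16 ± 0.06 and Cxcl16 1.40 ± 0.09 higher in kidney. Before that scaling, Cx3cl1 had 658 to 1593 reads per kidney library and 1569 to 2081 per retina library, so its excess rests on the normalisation. On log2(TPM + 1) with limma, Cx3cl1 was at -1.60 (adjusted p = 7.3e-15) and Cxcl16 at -0.21 (adjusted p = 0.0429), both lower in kidney. The Cx3cl1 call on normalised counts was also lost with relative log expression normalisation (adjusted p = 0.155).

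Among WT kidneys, Ccl2, Ccl5, Ccl19 and Cxcl9 fell in WT diabetic kidneys, against WT non-diabetic kidneys. These were 4 of the 9 chemokines tested, and 7.29% of all genes tested were called in that comparison (816 of 1326 calls were lower). None of these 9 chemokines was called higher. The median log2 difference was -0.37 over the 9 chemokines and -0.05 over all genes. Cxcl13, with 0 to 14 reads per kidney library, was not tested. Without K861 and K591 the same number, 4, was called lower.

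Ccl5, which attracts T cells and monocytes, was at a like level in the 4 WT diabetic kidneys. The KO diabetic kidneys had 1.51, 1.67, 1.69 and 2.55 CPM and the KO non-diabetic kidneys 4.08, 2.11, 1.01 and 2.01 CPM. It stood at 0.269, 0.283, 0.262 and 0.264 CPM in the WT diabetic kidneys, from 6 reads in each library, and at 1.45, 2.32, 3.16 and 2.47 CPM in the WT non-diabetic kidneys. All 4 WT diabetic libraries lay below all 12 others. The WT difference was -3.10 ± 0.40 on the log2 scale (an 8.56-fold lower level, adjusted p = 9.19e-04).

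Cxcl9, an interferon-induced ligand of Cxcr3 on activated T cells, had few reads in WT diabetic kidneys. Its levels were 2.25, 0.771, 0.544 and 2.12 CPM in KO diabetic kidneys and 3.01, 1.77, 1.06 and 1.52 CPM in KO non-diabetic kidneys. WT diabetic kidneys had 0, 0.283, 0.0437 and 0.0440 CPM, a total of 8.3 reads over the 4 libraries, against 3.57, 2.32, 5.66 and 2.69 CPM in WT non-diabetic kidneys. No WT diabetic library reached the range of any other group, and K645 was the highest of them. The WT difference was -5.21 ± 0.71 (adjusted p = 0.0013), a value that rests on few reads in the diabetic group and was -6.66 without K645.

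Ccl2 (MCP-1), the main attractant of Ccr2-bearing monocytes, had 0.346, 0.856, 1.45 and 0.648 CPM in KO diabetic kidneys and 0.673, 0.442, 0.585 and 0.147 CPM in KO non-diabetic kidneys. The WT diabetic kidneys had 0, 2, 2 and 0 reads, which is 0, 0.0944, 0.0873 and 0 CPM, and the WT non-diabetic kidneys had 0.484, 0.249, 1.07 and 0.785 CPM. The WT diabetic libraries were again the 4 lowest of the 16, all under the level of 3 reads, which was 0.131 to 0.142 CPM in those libraries. The fitted WT difference was -3.68 ± 0.79 (adjusted p = 0.0131).

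Ccl19, which guides Ccr7-bearing dendritic cells and T cells, stood at 4.76, 2.44, 2.96 and 2.08 CPM in KO diabetic kidneys and 3.52, 2.70, 2.39 and 2.21 CPM in KO non-diabetic kidneys. WT diabetic kidneys had 0.718, 0.944, 1.35 and 0.880 CPM, against 1.81, 2.32, 3.16 and 3.93 CPM in WT non-diabetic kidneys. The WT groups did not overlap, and the difference was -1.51 ± 0.32 (adjusted p = 0.0114). Only 41.2% of the 31-base words of its transcripts are unique to Ccl19 in the annotation, because of near-identical copies, so its reads may be shared with them and its values are uncertain.

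The calls of Ccl2 and Ccl19 ended in some settings. Without K597 both adjusted p-values were 0.0501, at -3.29 for Ccl2 and -1.39 for Ccl19. With the adipose marker sum as a covariate they were 0.128 for Ccl2, at a difference of -3.51, and 0.105 for Ccl19, at -1.64, so that the differences stayed near those of the fit without it. With limma on log2(TPM + 1) they were 0.0687 for Ccl2 (-0.77) and 0.064 for Ccl19 (-0.97). Ccl5 and Cxcl9 kept their calls in both the adipose and the limma fits, with limma differences of -1.97 and -1.27. With the adipose covariate Ccl5 was at -2.88 (adjusted p = 0.0316) and Cxcl9 at -4.48 (adjusted p = 0.0397), nearer the threshold than without it.

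The other 5 chemokines tested were not called for diabetes in WT kidneys. Cxcl10, the interferon-induced neighbour of Cxcl9 and likewise a Cxcr3 ligand, had 2.47, 3.92, 2.18 and 2.16 CPM in WT diabetic kidneys and 2.25, 2.32, 6.27 and 3.03 CPM in WT non-diabetic kidneys, with overlapping groups and a log2 difference of -0.37 ± 0.34 (adjusted p = 0.477). Cxcl1, a neutrophil attractant acting on Cxcr2, was at -0.33 ± 0.55. Cxcl16 was at -0.28 ± 0.16 and Cx3cl1 at 0.03 ± 0.14. Cxcl12 ran from 100 to 105 CPM in WT diabetic kidneys and from 45.8 to 88.7 CPM in WT non-diabetic kidneys, groups that did not overlap, yet the difference of 0.47 ± 0.24 was not called (adjusted p = 0.211). Of the settings run, it was called only with the mitochondrial share as a covariate (0.38, adjusted p = 0.034).

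**Figure D2:**
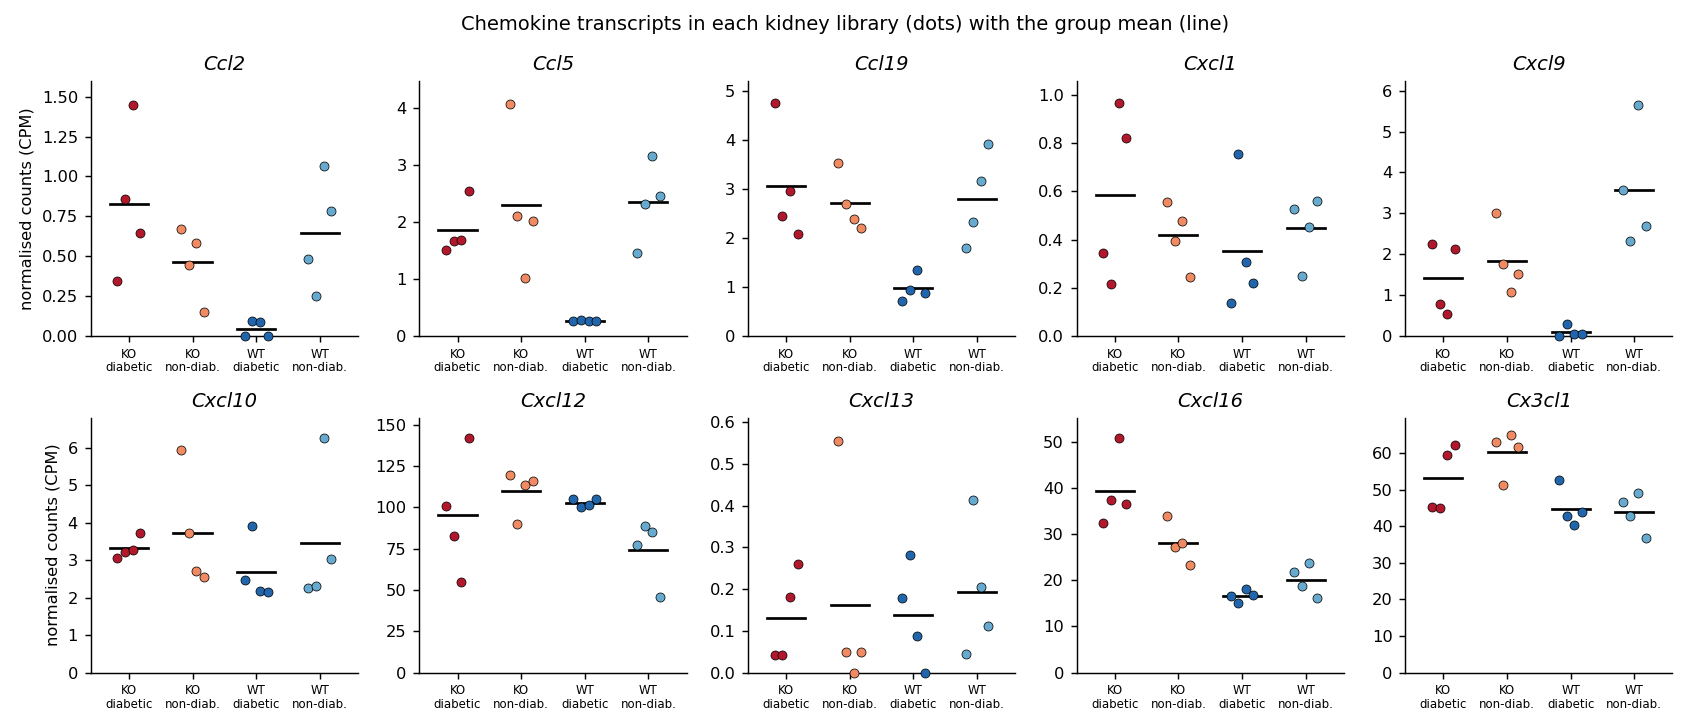
Normalised counts (CPM, y axis, from 0) of the 10 chemokines in each kidney library, by group (x axis: KO diabetic, KO non-diabetic, WT diabetic, WT non-diabetic), with a line at the group mean of 4 libraries. The WT diabetic libraries were the lowest 4 of 16 for Ccl2, Ccl5, Ccl19 and Cxcl9, and the KO diabetic libraries lay highest on average for Cxcl16.

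Cxcl9 and Cxcl10 lie 18.6 kb apart on chromosome 5, both on the minus strand, and their start regions are shown because Cxcl9 fell in WT diabetic kidneys and Cxcl10 was not called (the difference between the genes was not tested). Each stretch runs from 250 bases before to 50 bases after the RefSeq start (GRCm38.p6), 5′ to 3′ on the strand of the gene, with motif matches in capitals. The Cxcl9 stretch is chr5:92328030-92328329 and the Cxcl10 stretch chr5:92348840-92349139.
Cxcl9: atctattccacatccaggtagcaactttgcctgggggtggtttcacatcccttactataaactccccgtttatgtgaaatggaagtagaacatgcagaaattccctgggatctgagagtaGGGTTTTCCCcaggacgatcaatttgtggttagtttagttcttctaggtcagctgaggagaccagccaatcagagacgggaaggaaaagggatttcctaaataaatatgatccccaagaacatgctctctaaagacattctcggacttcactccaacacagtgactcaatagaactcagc
Cxcl10: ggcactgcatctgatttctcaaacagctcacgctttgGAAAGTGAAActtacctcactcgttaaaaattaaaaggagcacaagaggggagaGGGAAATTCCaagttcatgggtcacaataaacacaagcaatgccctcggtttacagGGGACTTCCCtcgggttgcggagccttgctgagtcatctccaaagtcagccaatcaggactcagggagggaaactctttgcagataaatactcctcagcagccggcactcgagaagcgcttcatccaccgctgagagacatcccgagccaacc
The letters searched on both strands were GAAA, any 2 bases, then GAAA for an interferon-stimulated response element, TTC, any 3 bases, then GAA for a gamma-activated site, and GGGA, any 4 bases, then CC for an NF-kB site. Cxcl10 held an interferon-stimulated response element 213 bases before the start and NF-kB letters at 159 and 103 bases before it, the last on both strands, and Cxcl9 held only NF-kB letters, at 130 bases. Of 32851 RefSeq promoters of this length, 3.44% held the interferon-stimulated letters, 8.3% the gamma-activated letters and 20.7% the NF-kB letters. Promoters were at hand for 7 of the 10 genes, not for Ccl2, Ccl5 and Cxcl16. Ccl19 held the interferon-stimulated letters at 208 bases and NF-kB letters at 250 bases, Cxcl1 had NF-kB letters at 90 and 71 bases (and an overlapping match on the other strand at 70), and Cxcl13 at 63 bases. No such letters were in the windows of Cxcl12 and Cx3cl1. A match describes the letters only.

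In KO kidneys no chemokine was called between diabetic and non-diabetic mice by edgeR, where 0.077% of all genes (14 of 18177) were called. DESeq2 called none of the 9 tested either, and Cxcl16 alone had an unadjusted p under 0.05. Ccl5 was at -0.32 ± 0.34, Cxcl9 at -0.37 ± 0.54, Ccl19 at 0.17 ± 0.30 and Ccl2 at 0.80 ± 0.59 on the log2 scale. Their groups overlapped in every case. Cxcl16 had the smallest p (0.48 ± 0.16, adjusted p = 0.269).

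Between genotypes, 5 chemokines rose in KO diabetic kidneys, against WT diabetic kidneys: Cxcl16, Ccl5, Cxcl9, Ccl19 and Ccl2. That was 5 of 9 tested, beside 19.7% of all genes tested, and 1939 of the 3573 calls over all genes were higher in KO. The median log2 difference was 1.24 over the 9 chemokines and 0.04 over all genes. The comparison uses the same WT diabetic libraries as the diabetes comparison in WT mice, so the 2 sets of values are not independent. Without K861 and K591 again 5 were called higher.

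For Ccl2 the difference was 4.01 ± 0.79 (adjusted p = 0.00704), for Cxcl9 3.90 ± 0.72 (adjusted p = 0.00534), for Ccl5 2.76 ± 0.40 (adjusted p = 0.00148) and for Ccl19 1.64 ± 0.32 (adjusted p = 0.00656). All 4 KO diabetic libraries lay above all 4 WT diabetic libraries for each of these genes. The Cxcl9 call was lost on log2(TPM + 1) (0.50, adjusted p = 0.125), and its difference was 5.35 without K645. With only these 2 groups in the fit, 6 of the 10 chemokines passed the filter on low counts and 3 were called.

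Cxcl16 was the chemokine with the smallest p. It stood at 32.5, 37.4, 50.8 and 36.5 CPM in KO diabetic kidneys and 34.0, 27.1, 28.0 and 23.4 CPM in KO non-diabetic kidneys. The WT diabetic kidneys had 16.5, 15.1, 18 and 16.7 CPM and the WT non-diabetic kidneys 21.8, 18.8, 23.6 and 16.2 CPM. Every KO diabetic library exceeded every WT library, and of the KO non-diabetic libraries only the lowest, K584, lay within the WT range. The difference in diabetic mice was 1.24 ± 0.16 (a 2.37-fold higher level, adjusted p = 5.13e-04). Leaving out 1 library at a time gave 1.10 to 1.32.

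The annotation places Cxcl16 on chromosome 11 (70453983 to 70459984, minus strand), where its start overlaps the start of Zmynd15 on the opposite strand by 552 bases, and 81.5% of its 31-base words are unique. Zmynd15 averaged 12.2 ± 3.41 CPM in KO diabetic kidneys, 8.99 ± 3.16 CPM in KO non-diabetic kidneys, 2.14 ± 0.343 CPM in WT diabetic kidneys and 5.34 ± 0.922 CPM in WT non-diabetic kidneys (SD, n = 4 each). It was 2.50 ± 0.26 higher in KO diabetic kidneys on the log2 scale (adjusted p = 4.46e-05). Whether the reads were counted by strand is not given in the sources used here, so reads of the pair cannot be told apart where they overlap. Tm4sf5, 45.3 kb from Cxcl16, had 0.0624 CPM in KO diabetic, 0.0723 in KO non-diabetic, 49.8 in WT diabetic and 19.8 in WT non-diabetic kidneys, as group means. Alox15, at 102.0 kb, had 0.123 CPM in KO diabetic, 0.127 in KO non-diabetic, 2.45 in WT diabetic and 97.9 in WT non-diabetic kidneys. The part of this chromosome region in the Cxcl16 difference was not tested.

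The remaining 4 chemokines were not called between genotypes in diabetic kidneys. Cxcl1 was at 0.71 ± 0.54, Cxcl10 at 0.31 ± 0.34 and Cxcl12 at -0.11 ± 0.24. Cx3cl1 was at 0.24 ± 0.14 (adjusted p = 0.205), with 45.4, 45.1, 59.6 and 62.4 CPM in KO diabetic kidneys and 52.6, 42.8, 40.3 and 43.8 CPM in WT diabetic kidneys, which overlap.

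In non-diabetic kidneys no chemokine was called between genotypes by edgeR or DESeq2, where 0.435% of all genes were called by edgeR. Cx3cl1 was at 0.46 ± 0.14 (adjusted p = 0.358), Cxcl16 at 0.48 ± 0.16 (adjusted p = 0.423) and Cxcl12 at 0.57 ± 0.24 (adjusted p = 0.728), the 3 with an unadjusted p under 0.05. The KO and WT libraries did not overlap for Cx3cl1 and Cxcl12, but the share of all genes without overlap was not counted. Cx3cl1 had 63.1, 51.2, 65.0 and 61.7 CPM in KO non-diabetic kidneys and 46.6, 42.8, 49.0 and 36.9 CPM in WT non-diabetic kidneys. Cxcl12 had 120, 90.0, 113 and 116 CPM in KO non-diabetic kidneys and 77.1, 88.7, 85.0 and 45.8 CPM in WT non-diabetic kidneys.

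**Figure D3:**
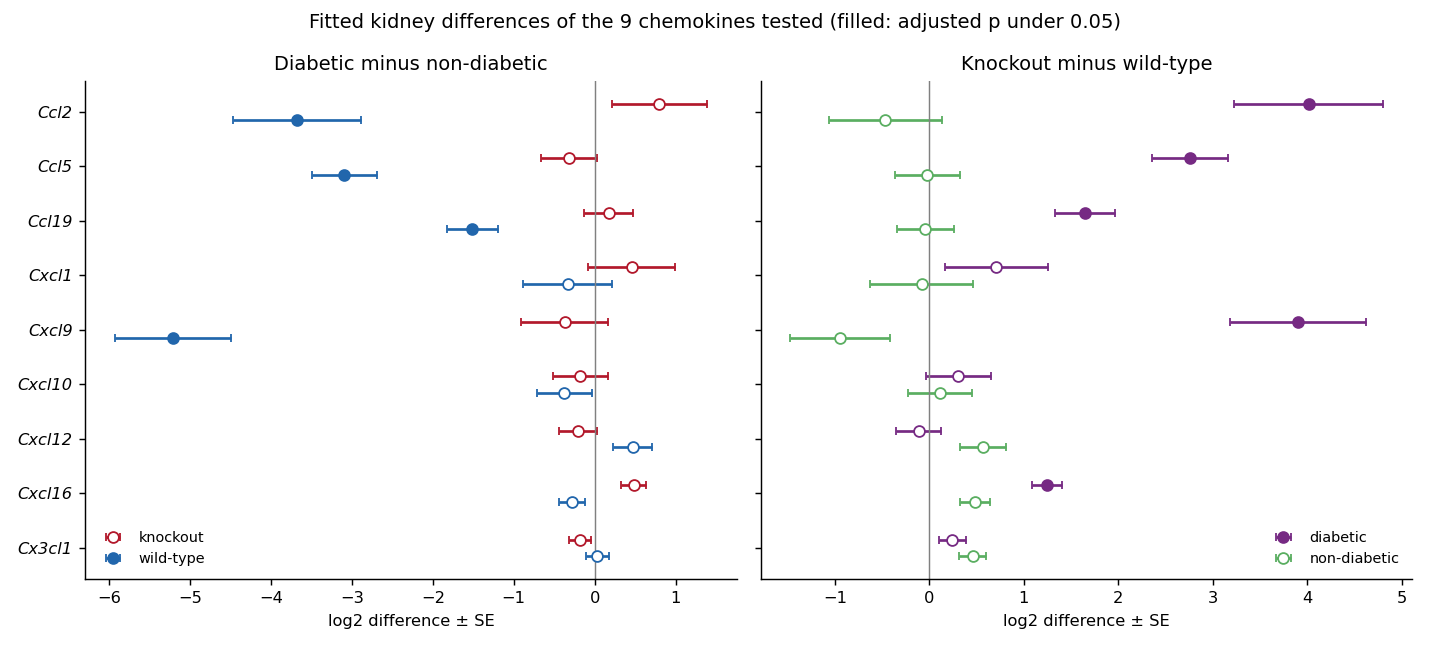
Fitted log2 differences (x axis, bars ± SE) of the 9 chemokines tested in kidney (y axis). Left, diabetic minus non-diabetic in knockout (above) and wild-type (below). Right, knockout minus wild-type in diabetic (above) and non-diabetic (below) mice. Filled points passed an adjusted p of 0.05, and they lie only in wild-type on the left and in diabetic mice on the right.

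The difference between these effects, the genotype by diabetes interaction (the diabetes effect in KO minus that in WT), was not called for any gene in kidney by edgeR, so 0.0% of all genes and none of the chemokines passed, although 5301 genes had an unadjusted p under 0.05. The interaction was 4.84 ± 0.90 for Cxcl9, or 6.29 without K645, and 2.78 ± 0.53 for Ccl5 (adjusted p = 0.0665 for both in the fit of all libraries). Ccl2 was at 4.48 ± 1.0 (0.0714 adjusted p), Ccl19 at 1.69 ± 0.43 (0.074) and Cxcl16 at 0.76 ± 0.22 (0.0837). DESeq2 called these 5, with adjusted p-values of 1.19e-04 for Cxcl9 to 0.0337 for Cxcl16, and 1640 genes in all. Without the filter on low counts edgeR called Cxcl9 alone (adjusted p = 0.0485). With 1 library left out, 6 chemokines were called without K596 (these 5, and Cxcl12 at -0.94 with an adjusted p of 0.031) and 3 without K559 (Cxcl9, Ccl5 and Ccl2). The share of all genes called in these refits is not given here, so the counts cannot be read as particular to chemokines.

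Receptors of several of these chemokines were lowest in WT diabetic kidneys. Of 18 chemokine receptors, 11 were tested in kidney, and 7 of the 11 fell in WT diabetic kidneys against WT non-diabetic kidneys. Of all genes tested, 7.29% were called in that comparison. The median log2 difference was -2.41 over the 11 receptors and -0.049 over all genes. Ccr2, the receptor of Ccl2, averaged 0.812 ± 0.281 CPM in WT diabetic kidneys and 4.34 ± 0.967 CPM in WT non-diabetic kidneys (log2 difference -2.41 ± 0.28, adjusted p = 4.53e-04). Cxcr6, the receptor of Cxcl16, fell by 2.75 ± 0.48 (adjusted p = 0.00479) and Xcr1, the receptor of Xcl1 on cross-presenting dendritic cells, by 3.25 ± 0.71 (adjusted p = 0.0137). Xcr1 is also in the dendritic cell list. In KO diabetic kidneys against WT diabetic kidneys 7 of the 11 rose, where 19.7% of all genes were called. The median was 1.73 over the 11 and 0.035 over all genes. Ccr2 averaged 3.51 ± 0.792 CPM in KO diabetic kidneys (2.11 ± 0.28 above WT diabetic, adjusted p = 8.38e-04), Cx3cr1 rose by 1.36 ± 0.26 (adjusted p = 0.00686) and Ccr7 by 3.55 ± 0.72 (adjusted p = 0.00805). Cxcr4, the receptor of Cxcl12, was called in neither (-0.46 ± 0.29 for diabetes in WT, 0.47 ± 0.29 for KO in diabetic mice). No receptor was called in the other 3 kidney comparisons.

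Of 28 other chemokine ligands 12 were tested in kidney. The shares of all genes called were 7.29% for diabetes in WT and 19.7% for KO in diabetic mice. In WT diabetic kidneys 4 fell, namely Ccl28, a mucosal epithelial chemokine, by 2.92 ± 0.51 (adjusted p = 0.00493), the platelet chemokines Ppbp by 3.25 ± 0.62 and Pf4 by 2.52 ± 0.58, and the Cxcr3 ligand Cxcl11 by 1.36 ± 0.32, and Ccl6 rose by 1.29 ± 0.30 (adjusted p = 0.0194). Ccl28 averaged 3.03 ± 1.62 CPM in KO diabetic and 3.42 ± 0.978 CPM in WT diabetic kidneys, against 12.4 ± 8.35 CPM in KO non-diabetic and 25.9 ± 9.18 CPM in WT non-diabetic kidneys (SD, n = 4 each). Its diabetes difference in KO kidneys, -2.03 ± 0.51, was not called (adjusted p = 0.19). In KO diabetic kidneys 6 of the 12 rose against WT diabetic kidneys, led by Ppbp (3.61 ± 0.61), Pf4 (2.94 ± 0.57), Ccl9 (1.75 ± 0.37) and Cxcl11 (1.48 ± 0.32). None of the 12 was called in the other 3 kidney comparisons.

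Of 8 genes tested of the interferon gamma route, 3 fell in WT diabetic kidneys, among them the feedback inhibitor Socs1 (by 1.69 ± 0.34, adjusted p = 0.0102) and the transcription factor Irf1 (by 0.80 ± 0.23, adjusted p = 0.0424). The median of the 8 was -0.33, against -0.049 for all genes, of which 7.29% were called. Of 10 genes tested of the NF-kB route 2 fell, the subunit Relb by 0.74 ± 0.18 and the interleukin-1 receptor Il1r1 by 0.63 ± 0.18. In KO diabetic kidneys 2 of the 8 (Irf8 and Socs1) and 3 of the 10 (Relb, Il1r1 and Il1b) rose against WT diabetic kidneys. Of all genes tested, 10.7% were called higher in that comparison and 19.7% in either direction. With lists this short the counts are a description only. None of 4 atypical receptors tested was called in these comparisons. Of 4 tested enzymes that shed or trim chemokines, Mmp2 alone rose in KO diabetic kidneys (by 1.03 ± 0.27, adjusted p = 0.0235), again a count from a short list.

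Summed markers of 4 immune cell types were lowest in WT diabetic kidneys. Macrophage markers (10 genes) summed to 144 to 190 CPM in KO diabetic, 134 to 183 in KO non-diabetic, 89.4 to 105 in WT diabetic and 107 to 176 in WT non-diabetic kidneys. Markers of T and NK cells (10 genes) summed to 5.02 to 8.43 CPM in KO diabetic, 3.83 to 11.8 in KO non-diabetic, 0.853 to 2.97 in WT diabetic and 4.53 to 9.51 in WT non-diabetic kidneys. The dendritic cell list (6 genes) summed to 85.7 to 114 CPM in KO diabetic, 76.3 to 142 in KO non-diabetic, 27.9 to 56.1 in WT diabetic and 74.0 to 132 in WT non-diabetic kidneys. In each of these 3 lists every WT diabetic library lay below every library of the other groups. B and plasma cell markers (7 genes) summed to 23.5 to 36.3 CPM in KO diabetic, 23.6 to 48.5 in KO non-diabetic, 6.47 to 15.1 in WT diabetic and 22.5 to 83.7 in WT non-diabetic kidneys. Of the genes tested, 5 of 7 of the T and NK cell list, 5 of 6 of the B and plasma cell list, 4 of 6 of the dendritic cell list and 3 of 10 of the macrophage list fell in WT diabetic kidneys, and 1 macrophage gene rose. Over all genes tested, 7.29% were called for diabetes in WT. None of the marker genes of these 4 lists was at 0 in all libraries of a kidney group, whereas 5 neutrophil markers summed to no more than 1.27 CPM. Endothelial markers summed to 205 to 246 CPM in KO diabetic and 142 to 240 CPM in the other kidney libraries, with none of 6 called for diabetes in WT. Other lists went both ways. The microglia list (6 genes) summed to 118 to 221 CPM in KO diabetic, 164 to 214 in KO non-diabetic, 178 to 230 in WT diabetic and 139 to 175 in WT non-diabetic kidneys, so it was higher in WT diabetic than in WT non-diabetic kidneys, although Aif1 of its 5 tested genes fell. Podocyte markers (3 genes, none called) were likewise higher, at 272 to 347 CPM in KO diabetic, 99.8 to 362 in KO non-diabetic, 227 to 271 in WT diabetic and 114 to 192 in WT non-diabetic kidneys. Proximal tubule markers had their lowest mean in WT diabetic kidneys. They summed to 9955 to 25120 CPM in KO diabetic, 18470 to 47790 in KO non-diabetic, 11020 to 16320 in WT diabetic and 20360 to 48740 in WT non-diabetic kidneys. For diabetes in WT 1 of these 6 genes rose and 1 fell. Lymphoid stroma markers (mean 6.20 CPM) and pericyte and fibroblast markers (mean 134 CPM) also had their lowest mean in WT diabetic kidneys, with ranges that overlapped those of WT non-diabetic kidneys. The part of these cells in the chemokine differences was not tested.

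**Figure D4:**
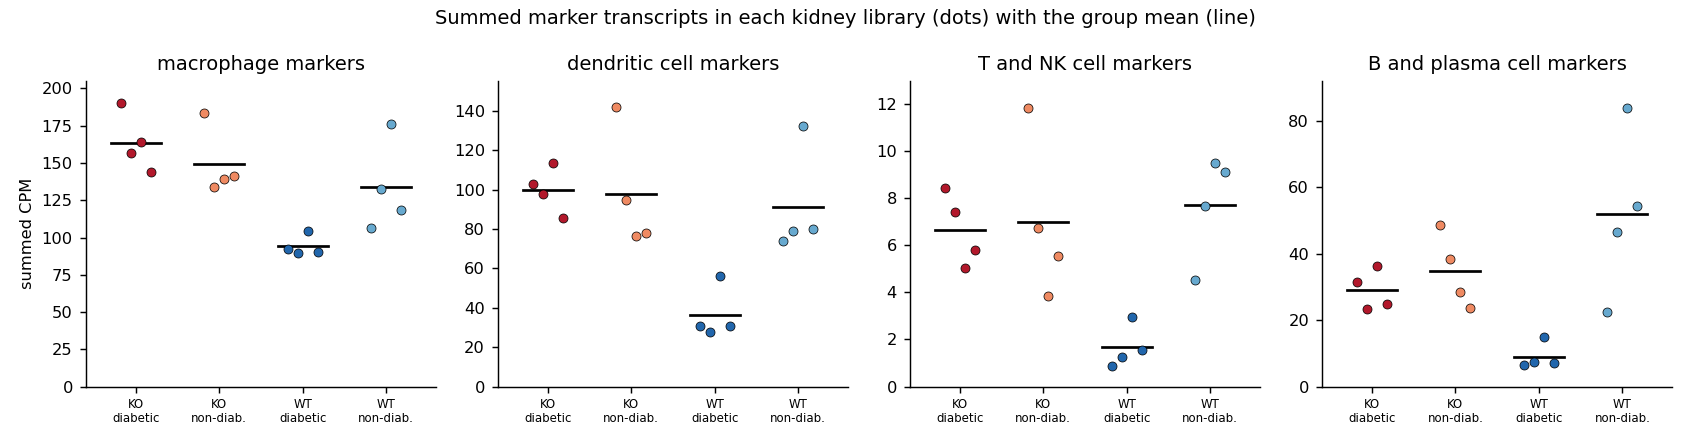
Summed CPM (y axis, from 0) of marker genes of 4 immune cell types in each kidney library, by group (x axis), with a line at the group mean of 4 libraries. The 4 WT diabetic libraries were the lowest of the 16 in each panel, for example at 0.853 to 2.97 CPM for T and NK cell markers.

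Across the 16 kidney libraries, which share the 4 groups and their depth, the genes most like each chemokine in log2 CPM were listed as a description. For Ccl5 these were Pirb (Pearson r = 0.976), Arhgap30 (0.931) and Ptprc, the pan-leukocyte gene CD45 (0.918). Ccl19 was most like the dendritic cell gene Clec9a (0.967), Arhgap45 (0.960) and Unc93b1 (0.955), and Cxcl9 was most like the interferon-induced guanylate-binding genes Gbp6 (0.939) and Gbp2 (0.915), with Psd4 (0.922) between them. Cxcl16 was most like Itgam (0.910), Bik (0.909) and its neighbour Zmynd15 (0.900). Lower values were reached for Cxcl10 (Dennd1c, 0.803; Ifit3, 0.780; Il21r, 0.743), Cxcl12 (Crim1, 0.896) and Cx3cl1 (Adhfe1, 0.851). Among the chemokines, Ccl5 and Cxcl9 had r = 0.880 and Ccl5 and Ccl19 r = 0.824, while Cxcl9 and Cxcl10, the neighbours on chromosome 5, had r = 0.502.

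In retina, 4 chemokines were tested, and 1 was called in 1 comparison. Cxcl12 rose in KO diabetic retinas, against WT diabetic retinas, where 1.78% of all genes were called. It stood at 26.7, 29.9 and 33.5 CPM in KO diabetic retinas and 24.9, 31.6, 24.3 and 28.1 CPM in KO non-diabetic retinas. WT diabetic retinas had 22.1, 22.2, 17.6 and 17.1 CPM and WT non-diabetic retinas 26.6, 25.5 and 25.9 CPM. The WT diabetic libraries were the 4 lowest of the 14, with R942 and R954 lowest. The difference in diabetic mice was 0.61 ± 0.11 on the log2 scale (a 1.52-fold higher level, adjusted p = 0.0164). It was not called without R588 (0.61, adjusted p = 0.057), R591 (0.52, adjusted p = 0.0867) or R942 (0.55, adjusted p = 0.054), nor without R915, R942 and R954 together (0.45, adjusted p = 0.354). It was also not called with only these groups in the fit (0.61, adjusted p = 0.0856) or with the mitochondrial share as a covariate (0.54, adjusted p = 0.0633).

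Diabetes gave no chemokine call in WT retinas by edgeR, where 2.48% of all genes were called. Cxcl12 was at -0.40 ± 0.11 (adjusted p = 0.0751) and its groups did not overlap, and Cxcl16 was at -0.55 ± 0.17 (adjusted p = 0.101), each with an unadjusted p under 0.05. DESeq2 called both lower (adjusted p = 0.0282 for Cxcl12 and 0.0429 for Cxcl16), as did edgeR without the filter on low counts. Without R844 the Cxcl12 difference was -0.46 (adjusted p = 0.0286), and without R915, R942 and R954 it was -0.23 (adjusted p = 0.594). Of the WT diabetic retinas, R844 had 26.5 CPM of Cxcl16 and R915, R942 and R954 had 16.0, 15.2 and 14.1 CPM, against 24.0, 29.4 and 25.6 CPM in WT non-diabetic retinas. R844 lay inside the WT non-diabetic range and the other 3 below it. Without R844 the difference was -0.80 (adjusted p = 3.56e-04), and without the other 3 it was 0.01 (adjusted p = 0.99).

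In KO retinas diabetes gave no chemokine call by edgeR (0.0% of all genes were called, and 1855 genes had an unadjusted p under 0.05) or DESeq2, which gave Cxcl13 no adjusted p, and none of the 4 had an unadjusted p under 0.05. Between genotypes in non-diabetic retinas no chemokine was called by edgeR either, where 1.14% of all genes were called. Cxcl16 was lowest in p at -0.70 ± 0.18 (adjusted p = 0.0752), with 15.8, 13.8, 18.4 and 16.7 CPM in KO non-diabetic retinas, all below the 24.0 to 29.4 CPM of WT non-diabetic retinas. It was called lower by DESeq2 (adjusted p = 0.00774), with only these 2 groups in the fit (0.00526) without R844 (0.00165) and without R915, R942 and R954 (0.00331). KO diabetic retinas had 14.5, 12.9 and 16.2 CPM, and the difference from WT diabetic retinas was -0.30 ± 0.18 (adjusted p = 0.429), or -0.86 (adjusted p = 0.025) without R915, R942 and R954 and -0.054 (adjusted p = 0.858) without R844. The retina interaction called 0.124% of all genes and no chemokine, with Cxcl12 at 0.54 ± 0.16 (adjusted p = 0.257), or 0.37 (adjusted p = 0.648) without R915, R942 and R954. Cxcl16 was at 0.40 ± 0.25 (adjusted p = 0.626), at 0.65 (adjusted p = 0.0393) without R844 and at -0.17 (adjusted p = 0.874) without the other 3.

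Cxcl13 and Cx3cl1 were called in no retina comparison. Cxcl13 averaged 1.13 ± 0.0647 CPM in KO diabetic, 1.37 ± 0.556 in KO non-diabetic, 1.39 ± 0.386 in WT diabetic and 0.918 ± 0.114 in WT non-diabetic retinas, from 16 to 42 reads per library. Cx3cl1 ran from 79.0 to 86.5 CPM in KO diabetic, 78.9 to 85.2 in KO non-diabetic, 86.0 to 104 in WT diabetic and 78.8 to 97.8 in WT non-diabetic retinas. Its differences lay between -0.15 ± 0.08 (KO in diabetic mice) and 0.04 ± 0.08 (diabetes in WT), and the groups overlapped in each comparison. Cx3cr1, its receptor on microglia, averaged 5.55 ± 1.16 CPM in KO diabetic, 5.55 ± 1.30 in KO non-diabetic, 4.11 ± 0.320 in WT diabetic and 5.39 ± 0.473 in WT non-diabetic retinas, and was not called.

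**Figure D5:**
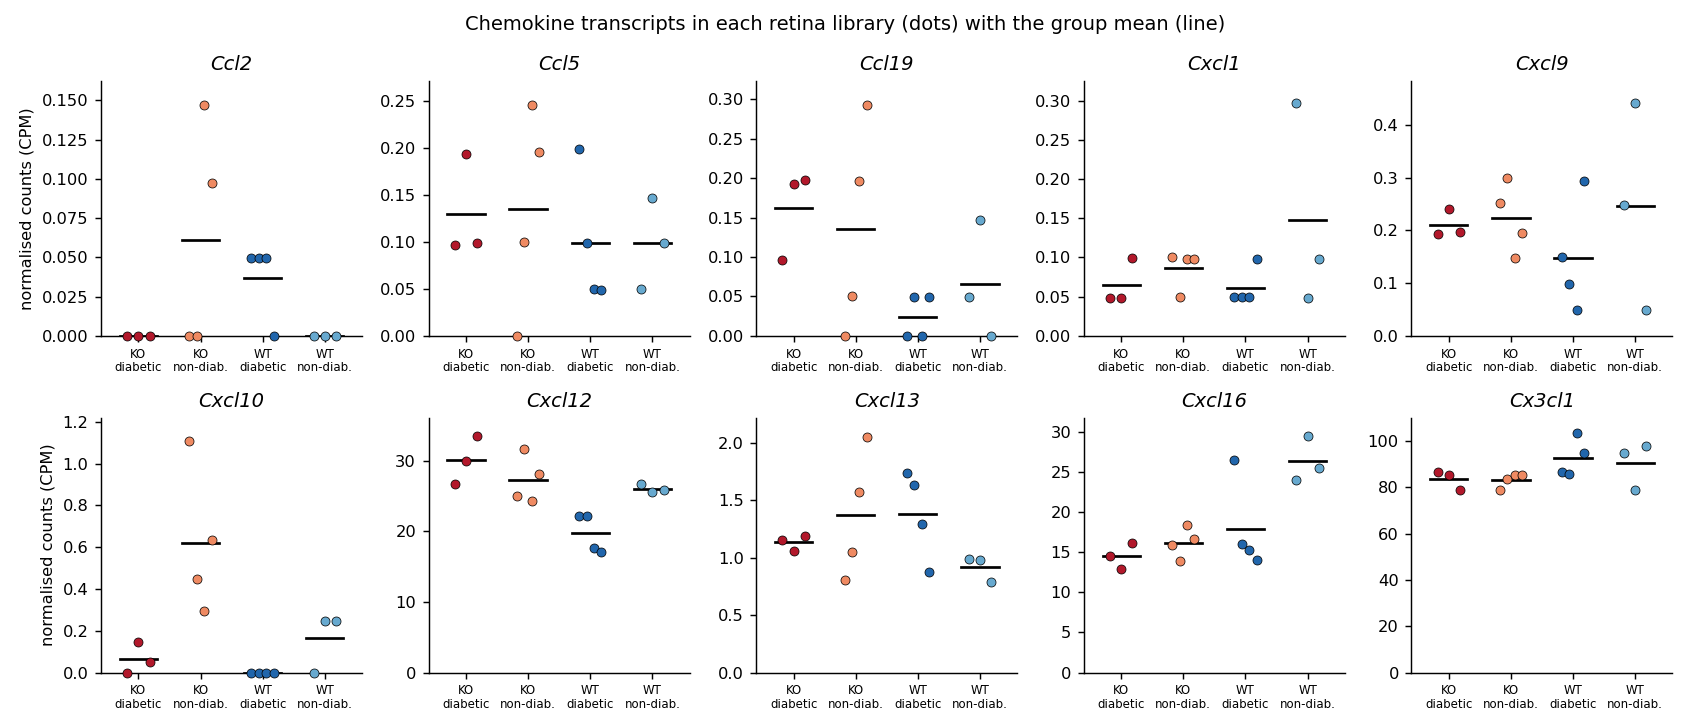
Normalised counts (CPM, y axis, from 0) of the 10 chemokines in each retina library, by group (x axis), with a line at the group mean of 3 or 4 libraries. Cxcl12 was lowest in the 4 WT diabetic libraries, R844 stood alone among them for Cxcl16 at 26.5 CPM, and the 6 genes that did not pass the filter had at most 22 reads in a library.

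Of the 6 chemokines that did not pass the filter in retina, Cxcl10 had the most reads. It had 0, 3 and 1 reads in KO diabetic retinas, 22, 9, 6 and 13 reads in KO non-diabetic retinas (1.11, 0.450, 0.295 and 0.635 CPM), none in the 4 WT diabetic retinas, and 0, 5 and 5 reads in WT non-diabetic retinas. All 4 KO non-diabetic libraries were above all others. A level of 3 reads, the most that a count of 0 allows, was 0.144 to 0.151 CPM in retina, and covers counting error only. In edgeR without the filter on low counts, the diabetes difference of Cxcl10 was -3.15 ± 0.79 in KO retinas (adjusted p = 0.217). In WT retinas it was -4.79 ± 1.44 (adjusted p = 0.0945). The KO difference was 1.88 ± 0.67 in non-diabetic retinas (adjusted p = 0.31) and 3.52 ± 1.63 in diabetic retinas (adjusted p = 0.446). None of these was called. Cxcr3, the receptor of Cxcl9 and Cxcl10, had no read in any retina library. No gene of the lists of other ligands, receptors, atypical receptors, shedding enzymes, interferon gamma route and NF-kB route was called in any of the 5 retina comparisons. Lens markers (4 genes, all called lower in WT diabetic than WT non-diabetic and higher in KO diabetic than WT diabetic retinas) summed to 282 to 656 CPM in KO diabetic, 48.9 to 106 in KO non-diabetic, 27.5 to 72.5 in WT diabetic and 54.2 to 885 in WT non-diabetic retinas. Of the other lists, macrophage, cone and neutrophil markers summed higher in every KO diabetic than in every WT diabetic retina, where Cxcl12 was called. Neutrophil markers were low in both, at 0.338 to 0.593 CPM in KO diabetic and 0.0498 to 0.298 CPM in WT diabetic retinas. Macrophage markers stood at 50.8 to 55.1 CPM in KO diabetic and 34.5 to 47.3 CPM in WT diabetic retinas (0 of 9 tested called), and cone markers at 864 to 978 CPM in KO diabetic and 627 to 857 CPM in WT diabetic retinas (0 of 3). Endothelial markers were lower, at 253 to 269 CPM in KO diabetic and 280 to 373 CPM in WT diabetic retinas, with 1 of 6 (Tek) called higher, and so were amacrine and horizontal cell markers, at 429 to 465 CPM in KO diabetic and 480 to 545 CPM in WT diabetic retinas (0 of 3 called). The part of these cells in the retina differences was not tested.

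The genes most like the retina chemokines over the 14 libraries were Pik3ap1 for Cxcl12 (Pearson r = 0.962), Rnf144b for Cxcl13 (0.911), Vps52 for Cxcl16 (0.960) and the synaptic gene Syn1 for Cx3cl1 (0.943), as a description.

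Cxcl16 was the only one of the 10 chemokines called for a knockout effect that differed between the organs in the fit of all 30 libraries. The KO effect in kidney minus that in retina was 1.57 ± 0.25 in diabetic mice (adjusted p = 0.00125), where 5.03% of all 23021 genes tested were called. It was 2.11 (adjusted p = 4.41e-04) without R915, R942 and R954 and 1.32 (adjusted p = 6.5e-04) without R844. In non-diabetic mice it was 1.21 ± 0.25 (adjusted p = 0.0396), where 0.0999% of all genes were called, and 1.22 (adjusted p = 0.00871) without R915, R942 and R954. In diabetic mice Cxcl9 was at 3.46 ± 1.09 (adjusted p = 0.0575) and Ccl2 at 6.54 ± 2.06 (adjusted p = 0.0625), larger but not called. Retina libraries held at most 9.1 reads of Cxcl9 and 3 of Ccl2, so these values rest on few reads. Both contrasts were added after the values were seen, and their fit does not use that 9 animals gave both organs. The Cxcl16 call in non-diabetic mice was lost on log2(TPM + 1) (1.08, adjusted p = 0.115) and in 17 of the 30 fits that left out 1 library (adjusted p up to 0.176). In diabetic mice DESeq2 called 3 of the 10 chemokines, Cxcl16 among them, and the share of all genes it called there is not given here. The Cxcl16 receptor Cxcr6 was called in diabetic mice as well (2.26 ± 0.67, adjusted p = 0.0478).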

How the data were processed

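Kidney and retina RNA of 30 libraries was analysed from the authors' deposited gene tables. Per the submitters' processing notes, the tools were Trim Galore 0.6.4 and kallisto, whose version is listed as 0.4.6, with the GRCm38.p6 build, which gave the deposited estimated counts (expected counts, 35.03% of them not whole) and the deposited TPM values, scaled by the authors to depth and transcript length. The summing to genes and the use of strand are not given in the sources used here. Symbols came from GENCODE M21: of 55385 identifiers, 54487 matched with version, 657 without version only, and 241 did not match.

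Counts were rounded, filtered with filterByExpr, scaled by TMM and tested with edgeR 4.0.16 (quasi-likelihood, R 4.3.3), in 1 fit of 4 groups per organ and 1 fit of all 30 libraries between organs, with Benjamini-Hochberg adjustment. DESeq2 1.42.0 and limma 3.58.1 on log2(TPM + 1), which understates changes of low genes, were alternatives, with other normalisation, filters, covariates, fits of the groups compared alone, and leaving out libraries. Total counts of 19870485 to 22643055 per library limit precision mainly for genes of a few reads, and 3 reads is taken as the most that a count of 0 allows. In data simulated for diabetes in WT kidneys (18177 genes), 42% of changes of 1 on the log2 scale and 75% of changes of 2 were recovered, and for WT retinas (20979 genes) 68% and 87%.

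The members, gene lists and tests were chosen with earlier results of these data known. Named beside the members were at most 4 called genes of each list, those with the smallest p (some are not reported here), and the 3 genes most like each member by Pearson r among genes averaging at least 1 CPM. Genes added to illustrate a point after their values were seen are Ccl6, Cxcr4, Alox15, Tm4sf5 and Zmynd15. The 9 animals with both organs are pairs by their labels, and the correlations of their deviations from the group means were 0.02 to 0.127. No 2 libraries held identical counts.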

Additional observations from a re-analysis of the deposited data

Results flagged for a closer look

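Among 44 sets of 4 libraries, each of 1 chemokine in 1 group, 2 held a library far from the others. Chance gives about 1 in 20, so 2 of 44 is near that rate, and the sets share libraries. For Cxcl9 in WT diabetic kidneys K645 had 0.283 CPM and the other 3 had 0 to 0.0440 CPM. For Cxcl16 in WT diabetic retinas R844 had 26.5 CPM and the other 3 had 14.1 to 16.0 CPM. The cause was not tested in either case.

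The knockout effect on Cxcl16 was called as different between the organs, in contrasts added after the values were seen. The fit does not use that 9 animals gave both organs. The effect in kidney minus that in retina was 1.57 ± 0.25 on the log2 scale in diabetic mice (adjusted p = 0.00125, edgeR) and 1.21 ± 0.25 in non-diabetic mice (adjusted p = 0.0396, edgeR). The call in non-diabetic mice was lost on log2(TPM + 1) and in 17 of the 30 fits that left out 1 library. In kidney Cxcl16 stood higher in every KO diabetic library than in every WT library, and in retina every KO non-diabetic library stood below every WT non-diabetic library.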

How the results depend on the processing

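The counts of called chemokines that moved by over 1.5 times are these. For diabetes in WT kidneys 2 were called on log2(TPM + 1) and 2 with the adipose covariate (4 in the reported fit; leaving out 1 library gave 2 to 4). For KO in diabetic kidneys 3 were called with only the groups compared, where fewer chemokines passed the filter. The kidney interaction gave 1 without the filter and 5 by DESeq2 (0 to 6 leaving out 1 library). In retina, diabetes in WT gave 2 without the filter and 2 by DESeq2 (0 to 2), and KO in non-diabetic mice gave 1 without the filter, by DESeq2, with only the groups compared and without R915, R942 and R954 (0 to 1). KO in diabetic retinas gave 0 with only the groups compared and 0 with the mitochondrial covariate (0 to 1), and the retina interaction gave 0 to 1. Smaller moves were 4 for KO in diabetic kidneys on log2(TPM + 1) (Cxcl9 lost), 5 for diabetes in WT kidneys with the mitochondrial covariate (Cxcl12 gained) and 3 with only the groups compared, and 9 for kidney minus retina with relative log expression normalisation, without the filter and by DESeq2 (Cx3cl1 lost). The share of all genes called is not given beside these counts. The cause was not tested.

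With the replicate block on the 9 animals sampled in both organs, 6 chemokines were called between kidney and retina, against 10, and these 6 were all that passed the filter with fewer libraries in the fit.

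Signs that changed were these log2 values. With the adipose covariate, Cxcl10 had -0.056 (kidney interaction) and 0.044 (diabetes in WT), and for KO in non-diabetic kidneys Ccl5 had 0.11 and Cxcl1 0.13. On log2(TPM + 1), Cx3cl1 had -0.081 (KO in diabetic kidneys), 0.014 (retina interaction) and -1.60 (kidney minus retina), Cxcl16 -0.21 (kidney minus retina), Cxcl10 -0.22 (kidney interaction), Ccl19 0.093 (KO in non-diabetic) and -0.044 (diabetes in KO) and Cxcl1 -0.002 (diabetes in KO). With the mitochondrial covariate, Ccl19 had -0.058 (diabetes in KO) and 0.056 (KO in non-diabetic), Cxcl12 0.22 (diabetes in KO kidneys), 0.28 (KO in diabetic kidneys) and -0.033 (diabetes in KO retinas), Cxcl9 0.034 (diabetes in KO) and Cx3cl1 0.044 (retina interaction). Without the filter Ccl5 had 0.012 (KO in non-diabetic kidneys). Without K861 and K591, Cx3cl1 had -0.016 (diabetes in WT), Cxcl12 0.069 (KO in diabetic), and for KO in non-diabetic Ccl5 had 0.018, Cxcl1 0.056 and Ccl19 0.17. Without R915, R942 and R954, Cx3cl1 had -0.059 (diabetes in WT) and 0.064 (interaction), and Cxcl16 0.010 (diabetes in WT) and -0.17 (interaction).

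Leaving out 1 library changed the sign of these uncalled values. In kidney, Ccl19 ran from -0.13 to 0.34 (diabetes in KO) and -0.20 to 0.17 (KO in non-diabetic), Ccl5 from -0.56 to 0.12 (diabetes in KO) and -0.43 to 0.22 (KO in non-diabetic), Cxcl1 from -0.26 to 0.13 (KO in non-diabetic), Cxcl12 from -0.35 to 0.076 (KO in diabetic) and Cx3cl1 from -0.045 to 0.10 (diabetes in WT). Cxcl10 ran from -0.32 to 0.15 (diabetes in KO), -0.61 to 0.10 (diabetes in WT), -0.27 to 0.51 (interaction) and -0.19 to 0.59 (KO in non-diabetic). In retina, Cx3cl1 ran from -0.023 to 0.039 (diabetes in KO), -0.052 to 0.096 (diabetes in WT) and -0.094 to 0.054 (interaction), and Cxcl12 from -0.013 to 0.12 (KO in non-diabetic). Of 1360 values of single chemokines with 1 library left out, 1291 kept direction and side of the threshold, and of 547 in other settings 490 did.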
